A study of Mus musculus with 2 samples.

Results

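The 34 interferon-stimulated genes described here are genes whose transcription rises when a cell senses interferon, and all 34 were found by symbol among the 55487 genes of the deposited count table. They were followed in mTECs, epithelial cells of the thymic medulla, which show developing T cells the proteins of other organs. The tested animals were wild-type female C57BL/6J mice of 4 weeks that had received 7 daily intraperitoneal injections of spermidine, a polyamine, dissolved in buffered saline (PBS) and given at 15 mg/kg, and the reference animals were mice of the same strain, sex and age injected with PBS alone. Cells positive for CD45, the surface protein of blood cells, were depleted on beads, and mTEChi and post-Aire mTEClo cells were then sorted, per the labels' protocols. The samples were spermidine replicates 1 and 2 and PBS replicates 1 and 2, marked with hashtag antibodies to CD45 and MHC class I and pooled in 1 droplet run. Whether a replicate is its own mouse is not stated in the labels. The p-values below therefore speak only of the spread among the hashed samples, part of which may be technical. The spread used to test a gene is estimated in part from other genes.

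Interferons of type I (Ifna and Ifnb1) and type III (Ifnl2 and Ifnl3) signal through receptors that share the kinases Jak1 and Tyk2 and lead to a complex that includes Stat2 and Irf9. That complex binds the interferon-stimulated response element (ISRE) in promoters, while type II interferon (Ifng) acts mainly through a different element, GAS. The thymic medulla is known to make interferons without infection, and mature mTECs are one of their known sources.

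The promoters of 24 of the 34 members could be read from RefSeq (GRCm38.p6), each from 250 bases before the transcription start to 50 after it. Letters of the ISRE core, searched on both strands as GAAA, 2 bases of any kind and GAAA, stood in 13 of these 24 genes (54.2%), against 1079 of 27025 genes with a promoter in that table (3.99%). The GAS letters, searched as TTC, 3 bases and GAA, stood in 5 of the 24 members (20.8%), against 9.55% of all genes. A match is a match of letters and not a measured binding site. The 4 promoters below are shown because Isg15, Rsad2 and Ifit3 lead co-variation or treatment comparisons reported further on and Ifit1 differed between classes in the direction opposite to Ifit3, and the capitals mark the ISRE letters. Isg15 is at chr4:156200769-156201068 (minus strand), Rsad2 at chr12:26456403-26456702 (minus strand), Ifit1 at chr19:34640639-34640938 (plus strand) and Ifit3 at chr19:34583279-34583578 (plus strand), and each is written in the direction of its gene.
Isg15: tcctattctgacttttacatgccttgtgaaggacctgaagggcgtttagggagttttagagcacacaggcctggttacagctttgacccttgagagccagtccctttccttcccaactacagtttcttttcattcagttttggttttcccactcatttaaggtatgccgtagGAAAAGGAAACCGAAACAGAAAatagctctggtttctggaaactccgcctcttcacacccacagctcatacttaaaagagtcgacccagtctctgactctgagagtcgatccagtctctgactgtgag
Rsad2: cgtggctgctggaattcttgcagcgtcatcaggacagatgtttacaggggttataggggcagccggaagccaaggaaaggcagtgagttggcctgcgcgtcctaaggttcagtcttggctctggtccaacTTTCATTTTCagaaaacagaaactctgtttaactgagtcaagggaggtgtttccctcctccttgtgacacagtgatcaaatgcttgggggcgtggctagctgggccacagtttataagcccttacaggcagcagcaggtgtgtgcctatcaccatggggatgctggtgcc
Ifit1: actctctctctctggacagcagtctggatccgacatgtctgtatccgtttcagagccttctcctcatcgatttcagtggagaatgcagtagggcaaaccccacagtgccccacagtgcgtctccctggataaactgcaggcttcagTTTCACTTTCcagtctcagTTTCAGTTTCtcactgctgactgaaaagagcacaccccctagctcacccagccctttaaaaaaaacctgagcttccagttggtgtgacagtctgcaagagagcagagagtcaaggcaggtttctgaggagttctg
Ifit3: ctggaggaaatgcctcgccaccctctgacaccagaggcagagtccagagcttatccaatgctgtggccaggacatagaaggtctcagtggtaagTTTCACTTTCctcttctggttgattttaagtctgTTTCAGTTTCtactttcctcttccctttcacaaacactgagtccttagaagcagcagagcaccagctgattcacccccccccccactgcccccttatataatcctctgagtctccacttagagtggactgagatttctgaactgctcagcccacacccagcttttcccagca
Isg15 held 3 overlapping matches on the gene's own strand, which began 78, 72 and 66 bases before the start. On the opposite strand, Ifit1 held matches at 104 and 85 bases before the start, Ifit3 at 156 and 122 bases and Rsad2 at 120 bases. The other 9 members with a match were Bst2, Eif2ak2, Ifi205, Ifih1, Ifit3b, Oas1a, Oas3, Stat2 and Trim30a. Irf7, Xaf1, Oasl2 and Ifit2 were among the 11 with none of these letters in the window.

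Barcodes were kept with at least 1000 unique molecular identifiers (UMIs, counts of single RNA molecules) and 500 genes and under 15% mitochondrial UMIs, which left 8534 of 12139. Of these, 3739 carried 1 hashtag of a labelled sample, with 778 to 1099 cells, 13316095 to 19893017 UMIs and a median of 14549 to 16812 UMIs per cell in each sample. Cells were clustered without the members and without the listed interferon pathway genes, and clusters were named from marker lists as "X-like". Other genes that vary with the members, such as Ifitm3 and Rnf213, were not held out and could still shape the clusters. The class comparisons below are therefore not independent of how the classes were made. Aire, the regulator that gives the Aire-stage class its name, stood at 772 ± 66 CPM (UMIs of the gene per 1000000 UMIs of the class, mean ± SD over the 4 hashed samples) in the 1214 Aire-stage cells, at 40.9 ± 24.7 CPM in the 208 immature mTEC-like cells and at 29.8 ± 8.07 CPM in the 992 tuft-like cells. Despite the depletion, 64 myeloid-like and 97 thymocyte-like cells remained, and Ptprc, which encodes CD45, stood at 429 ± 121 CPM in the myeloid-like class and at 6.36 ± 1.62 CPM in the Aire-stage class. Hashtags remove doublets of cells from different samples and not those of cells from the same sample.

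Summed over the 34 members, the level was highest among the epithelial classes in the immature mTEC-like cells, whose leading genes were Ccl21a and Krt5. They held 4674 and 6470 CPM in the spermidine samples and 6905 and 5504 CPM in the PBS samples, or 5888 ± 999 CPM over all 4 (SD, n = 4). The myeloid-like cells followed at 5195 ± 1200 CPM, the keratinocyte-like at 3668 ± 473 CPM, the goblet- or secretory-like at 2781 ± 456 CPM and the enterocyte- or hepatocyte-like at 2767 ± 213 CPM. The tuft-like cells stood at 1958 ± 451 CPM, the thymocyte-like at 1911 ± 519 CPM, the Aire-stage at 1862 ± 113 CPM, the neuroendocrine-like at 1695 ± 332 CPM, the microfold-like at 1578 ± 251 CPM and the transit-amplifying-like at 1382 ± 92.8 CPM. Neighbours in this order overlapped between samples, except that every enterocyte- or hepatocyte-like value lay above every tuft-like one. Ciliated-like and muscle-like cells numbered under 10 in some samples and were left out of the order.

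Ifi27l2a, a small protein of the mitochondrial membrane, carried many of these UMIs, with 2968 ± 466 CPM in immature mTEC-like cells and 309 ± 91.1 CPM in Aire-stage cells. Without it the sum was 3853 ± 765 CPM in the myeloid-like, 2920 ± 574 CPM in the immature, 1553 ± 43.4 CPM in the Aire-stage, 1400 ± 229 CPM in the tuft-like and 812 ± 80.7 CPM in the transit-amplifying-like class. Member by member, 20 of the 34 had their highest epithelial mean in the immature class and 17 their lowest in the transit-amplifying-like class. The exceptions at the top were Ifit1, Ifi35 and Ifi205 in the Aire-stage class, Rsad2, Oas2 and Irf7 in the tuft-like class, Isg15 and Irf9 in the keratinocyte-like class, Oasl1 and Ifi27l2b in the enterocyte- or hepatocyte-like class, Ifih1 and Dtx3l in the goblet- or secretory-like class, Usp18 in the transit-amplifying-like class and Ifi27 in the neuroendocrine-like class. With the immune classes included, 17 members were highest in the myeloid-like class. Ifi27l2a and Ifi27l2b, and Ifit3 and Ifit3b, are close copies whose reads the authors' counting could have split, so the balance within each pair is uncertain.

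**Figure D1:**
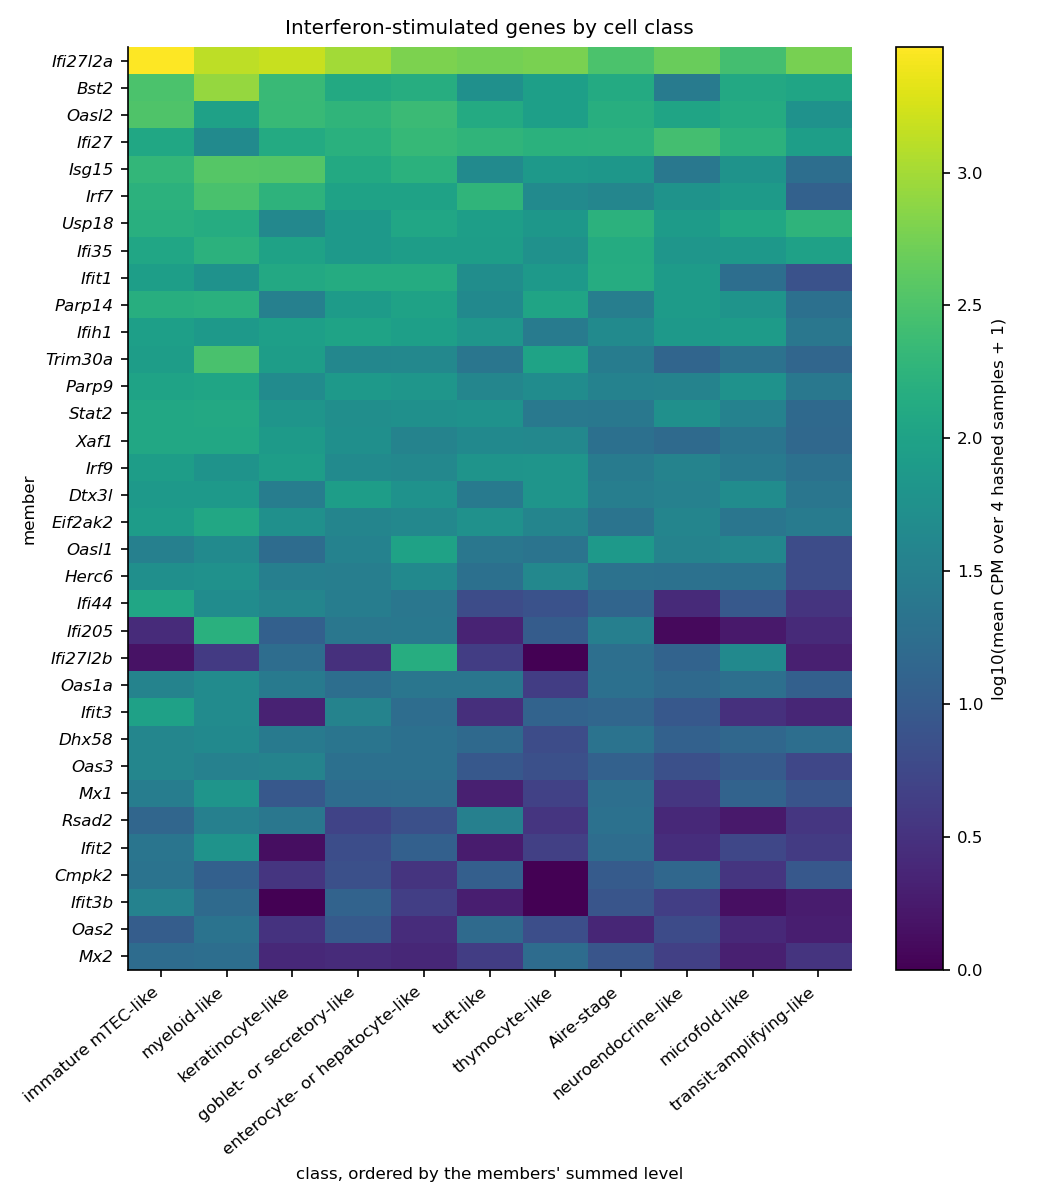
Mean level of each of the 34 members (rows) in each of 11 cell classes (columns, ordered by the members' summed level), as log10 of the mean CPM over the 4 hashed samples plus 1, with yellow for high and dark violet for low. The immature mTEC-like and myeloid-like columns are the brightest over most rows, and Usp18, Ifit1 and Oasl1 are bright in the Aire-stage column.

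The first class comparison set Aire-stage cells against immature mTEC-like cells, in an edgeR quasi-likelihood fit over all genes with the hashed sample as a block. Of the 34 members, 7 were higher in Aire-stage cells, against 36% of all genes tested, and 24 were lower, against 20.6% of all genes. Mx1, Ifit2 and Rsad2 did not pass the adjusted threshold of 0.05. The median member was lower by 1.07 on the log2 scale (-1.07), while the median of all genes was 0.19.

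Among the members that fell was Xaf1, an antagonist of an inhibitor of cell death, with 18.6, 21.3, 17.2 and 15.2 CPM in the Aire-stage cells of spermidine 1, spermidine 2, PBS 1 and PBS 2. The same samples held 108, 118, 135 and 125 CPM in immature cells (log2 difference -2.54, SE 0.17, edgeR adjusted p = 6.4e-08), and the classes did not overlap. Ifi27l2a had 283, 429, 210 and 315 CPM in Aire-stage cells and 2487, 3401, 3332 and 2654 CPM in immature cells (-3.07, SE 0.15, edgeR adjusted p = 6.8e-09). Ifi44, a cytoplasmic protein induced by type I interferon, had 13.5, 12.7, 13.7 and 10.1 CPM in Aire-stage cells and 68.6, 136, 152 and 94.9 CPM in immature cells (-2.93, SE 0.21, edgeR adjusted p = 1.5e-07). In both genes the lowest immature sample lay well above the highest Aire-stage sample. Oas2, an enzyme that makes the messenger of RNase L, had 1.77, 2.24, 0.932 and 0.608 CPM in Aire-stage cells and 4.9, 9.69, 15.3 and 8.25 CPM in immature cells (-2.60, SE 0.59, edgeR adjusted p = 0.0023). Of the factors that carry the signal to promoters, Stat2 (-2.11), Irf9 (-1.42) and Irf7 (-1.93) were all lower in Aire-stage cells. So were Parp14 (-2.12), Parp9 (-1.39) and the ubiquitin ligase Dtx3l (-1.07), a partner of Parp9, and the kinase Eif2ak2 (PKR), which stops translation on double-stranded RNA, at -1.78. The RNA-binding Ifit3 had 26.5, 17.5, 4.42 and 2.84 CPM in Aire-stage cells and 53.9, 85.3, 135 and 109 CPM in immature cells (-2.96, SE 0.52, edgeR adjusted p = 0.0004). Its Aire-stage values were higher in both spermidine samples than in both PBS samples, which is taken up with the treatment.

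The members that were higher in Aire-stage cells were Usp18, Ifi35, Ifi27, Ifit1, Oasl1, Ifi205 and Ifi27l2b. Oasl1, a relative of the oligoadenylate synthetases that is known in the mouse to hold back Irf7 translation, had 63.3, 65.8, 82.7 and 77.6 CPM in Aire-stage cells and 26.9, 25.2, 50.1 and 24.7 CPM in immature cells (1.39, SE 0.19, edgeR adjusted p = 5.1e-05). Ifit1, which binds RNA with foreign 5′ ends, had 161, 126, 146 and 136 CPM in Aire-stage cells and 73.5, 93.1, 118 and 60.5 CPM in immature cells (0.94, SE 0.17, edgeR adjusted p = 0.00047). Ifit1 differed in the direction opposite to Ifit3, although both lie in the Ifit cluster of chromosome 19 and both promoters printed above hold a pair of ISRE matches. Ifi27 had 164, 158, 161 and 204 CPM in Aire-stage cells and 98, 96.9, 117 and 150 CPM in immature cells (0.79, SE 0.12, edgeR adjusted p = 0.00016). Usp18, which removes Isg15 from proteins and damps receptor signalling, was higher by 0.37 (SE 0.12, edgeR adjusted p = 0.023). Ifi205, a DNA-binding protein of the Ifi200 family, had 27.2, 20.7, 29.3 and 46.6 CPM in Aire-stage cells and 2.45, 1.94, 2.18 and 0 CPM in immature cells (4.51, SE 0.47, edgeR adjusted p = 4.9e-06). Ifi27l2b had 484 UMIs over the Aire-stage cells and 1 UMI over the immature cells, so no fold is given.

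Tuft-like cells, which express the taste and tuft-cell genes of mucosal tissues, were then set against Aire-stage cells. Here 9 members were higher (32.2% of all genes) and 13 lower (41.6% of all genes), shares of the 34 that lie near or under those of all genes, and the median member was at -0.23 against -0.14 for all genes. The members that were higher included Irf7, Irf9 and Stat2, transcription factors of the pathway. Irf7, the factor that amplifies the type I response, had 182, 144, 208 and 207 CPM in tuft-like cells and 44.4, 42.3, 27.2 and 39.3 CPM in Aire-stage cells (2.29, SE 0.17, edgeR adjusted p = 2.1e-06). Stat2 had 59.6, 54.9, 64.6 and 49.5 CPM in tuft-like cells and 28.2, 20.2, 24.9 and 22.3 CPM in Aire-stage cells (1.28, SE 0.11, edgeR adjusted p = 5.4e-06). Oas2 had 14.6, 9.98, 17.1 and 17.1 CPM in tuft-like cells and 1.77, 2.24, 0.932 and 0.608 CPM in Aire-stage cells (3.34, SE 0.40, edgeR adjusted p = 5.1e-05). Eif2ak2 had 50, 44.5, 57.2 and 72.5 CPM in tuft-like cells and 18.3, 28, 19.3 and 18 CPM in Aire-stage cells (1.45, SE 0.19, edgeR adjusted p = 8.9e-05). None of these 4 genes overlapped between the classes. Xaf1 had 37.3, 24, 56.6 and 54 CPM in tuft-like cells and 18.6, 21.3, 17.2 and 15.2 CPM in Aire-stage cells (1.23, SE 0.24, edgeR adjusted p = 0.0012). The other 4 were Irf9 (1.21), Ifi27l2a (0.84), Ifih1 (0.62) and Parp14 (0.59).

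Among the members lower in tuft-like cells was Mx1, a GTPase that blocks viral ribonucleoproteins in strains with an intact gene. It had 0.355, 1.81, 1.33 and 0.697 CPM in tuft-like cells and 23.1, 13.3, 14.9 and 19.5 CPM in Aire-stage cells (-3.97, SE 0.37, edgeR adjusted p = 1e-05). Ifit2 had 0.355, 0.454, 0.76 and 1.74 CPM in tuft-like cells and 26.2, 18.6, 6.75 and 15 CPM in Aire-stage cells (-4.06, SE 0.42, edgeR adjusted p = 1.9e-05). Ifi205 had 2.48, 0.907, 0.38 and 1.05 CPM in tuft-like cells and 27.2, 20.7, 29.3 and 46.6 CPM in Aire-stage cells (-4.77, SE 0.33, edgeR adjusted p = 1.4e-06). These 3 genes were under 3 CPM in the tuft-like cells of all 4 samples. Ifi27l2b had 0.355, 5.9, 0.57 and 6.27 CPM in tuft-like cells and 26, 19.7, 11.2 and 13 CPM in Aire-stage cells (-2.55, SE 0.53, edgeR adjusted p = 0.0018). Ifit3b had 0, 0.454, 1.9 and 1.39 CPM in tuft-like cells and 14.6, 9.29, 4.19 and 0.608 CPM in Aire-stage cells (-2.38, SE 0.82, edgeR adjusted p = 0.025), where the PBS 2 values overlapped. The other lower members were Ifit3 (-2.20), Oasl1 (-1.64), Ifit1 (-1.52), Bst2 (-1.28), Mx2 (-1.18), Ifi44 (-1.16), Usp18 (-0.91) and Ifi35 (-0.66). Bst2 (tetherin) holds budding virus on the cell surface. Oas1a, Oas3, Oasl2, Rsad2, Isg15, Ifi27, Dhx58, Trim30a, Parp9, Dtx3l, Cmpk2 and Herc6 did not pass the test.

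In the 64 myeloid-like cells, whose leading genes were Tyrobp, Ccl17 and Clec7a, 25 members were higher than in all epithelial cells summed (10.6% of all genes) and 2 were lower (23.6% of all genes). The median member was at 1.59 and the median gene at -0.70. Bst2 had 796, 938, 534 and 1120 CPM in myeloid-like cells and 126, 124, 130 and 135 CPM in epithelial cells (2.90, SE 0.21, edgeR adjusted p = 1.8e-42). Trim30a, a regulator of Toll-like receptor signalling in the mouse, had 290, 391, 242 and 287 CPM in myeloid-like cells and 31.5, 30.8, 30 and 26 CPM in epithelial cells (3.57, SE 0.24, edgeR adjusted p = 1.1e-47). Ifi205 had 139, 195, 92.5 and 207 CPM in myeloid-like cells and 16, 11.7, 9.43 and 20.8 CPM in epithelial cells (3.67, SE 0.27, edgeR adjusted p = 1.2e-40). All 3 were higher in every myeloid-like sample than in any epithelial one. So were Ifit2, with 61, 73.3, 53.4 and 51.7 CPM in myeloid-like cells and 14.9, 11, 5.8 and 7.99 CPM in epithelial cells (2.87, SE 0.38, edgeR adjusted p = 4.5e-13), and Mx1, with 81.3, 39.1, 39.1 and 91.9 CPM in myeloid-like cells and 15.3, 10.2, 12.1 and 12.1 CPM in epithelial cells (2.51, SE 0.36, edgeR adjusted p = 4.1e-11). The 2 lower members were Ifi27, with 58.1, 39.1, 60.5 and 23 CPM in myeloid-like cells and 158, 150, 193 and 208 CPM in epithelial cells (-1.68, SE 0.28, edgeR adjusted p = 2.3e-08), and Ifi27l2b, with 11.6, 0, 0 and 0 CPM in myeloid-like cells and 19.5, 18.4, 17.4 and 19.7 CPM in epithelial cells (-2.09, edgeR adjusted p = 0.012). Ifit1 had 49.4, 83, 67.6 and 28.7 CPM in myeloid-like cells and 108, 86.3, 92.2 and 88.6 CPM in epithelial cells (-0.49, edgeR adjusted p = 0.16) and did not pass. Neither did Oasl2 (-0.44), Oasl1 (0.15), Ifit3b, Usp18, Cmpk2 and Ifih1. Each myeloid-like sample held 14 to 18 cells, which limits the precision of its values. The spread of a gene was estimated in part from other genes, so the p-values here are not comparable with those of other comparisons.

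The other genes of the pathway did not all follow the members. Among all genes tested between Aire-stage and immature cells, 36% were higher and 20.6% lower. Of 20 receptor and signalling genes tested between these classes, 6 were higher and 8 lower. Ifnlr1, the receptor chain specific to type III interferon, had 0.917 ± 0.188 CPM in Aire-stage cells and 25.4 ± 6.7 CPM in immature cells (-4.49, edgeR adjusted p = 3e-06, SD, n = 4). Ifnar1 (-0.16, edgeR adjusted p = 0.55) and Ifnar2 (-0.35, edgeR adjusted p = 0.12), the chains of the type I receptor, did not pass. Of 12 nucleic acid sensors and adaptors tested, 2 were higher and 4 lower. Sting1, the adaptor for cytosolic DNA, was higher by 1.51 in Aire-stage cells, and Ddx58 (RIG-I), a sensor of viral RNA, had 10.4 ± 0.812 CPM there and 105 ± 26.6 CPM in immature cells (-3.11). Of 18 genes led by interferon gamma, 7 were higher and 8 lower, and the chemokine Cxcl10 had 716 ± 77 CPM in Aire-stage cells and 397 ± 132 CPM in immature cells (1.09, edgeR adjusted p = 0.0004).

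Tuft-like against Aire-stage cells, 7 of 19 receptor and signalling genes were higher and 8 lower, 4 of 12 sensors were higher and 4 lower, and 1 of 18 gamma-led genes was higher and 12 lower. Among all genes tested there, 32.2% were higher and 41.6% lower. Tlr3, the endosomal sensor of double-stranded RNA, had 57.1 ± 2.95 CPM in tuft-like cells and 5.11 ± 1.43 CPM in Aire-stage cells (3.51, edgeR adjusted p = 8.5e-08). Cxcl10 had 26.2 ± 15 CPM in tuft-like cells and 716 ± 77 CPM in Aire-stage cells (-4.80, edgeR adjusted p = 1.5e-07). Myeloid-like against epithelial cells, 11 of 20 receptor and signalling genes were higher and 2 lower, 6 of 13 sensors were higher and 2 lower, and 5 of 18 gamma-led genes were higher and 3 lower. Among all genes tested in that comparison, 10.6% were higher and 23.6% lower.

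UMIs of the interferons themselves, counted at each cell's full depth, lay mostly in Aire-stage cells, a large class of deep cells. Ifnb1 had 40 UMIs in 10 of the 1214 Aire-stage cells, Ifng 139 UMIs in 18 cells, Ifnl2 63 UMIs in 30 cells and Ifnl3 65 UMIs in 27 cells. None of these 4 genes had a UMI in the 208 immature cells, which allows a share of up to 1.44% of cells with a UMI, and among the 992 tuft-like cells Ifnb1 and Ifnl2 had 1 UMI each. As a share of cells, the enterocyte- or hepatocyte-like class was not lower for every interferon. Of its 244 cells, 0.82% had Ifnb1 and 2.46% had Ifng, against 0.824% and 1.48% of Aire-stage cells. Ifnl2 was found in 0% of them and Ifnl3 in 0.82%, against 2.47% and 2.22% of Aire-stage cells. Of the 40 Ifnb1 UMIs, 33 came from spermidine 1, with 16 in 1 cell. To compare cells of unlike depth, each cell was thinned to 5000 UMIs and the members with a UMI were counted. The 14 Aire-stage cells with Ifnb1 or an Ifna gene held 12.2 members on average (5 to 26), against 4.92 members in the other 1090. The 18 cells with Ifng held 5.39 members on average, against 5.01 in the rest, and the 42 with Ifnl2 or Ifnl3 held 6.33 members, against 4.96. Cells are not replicates, so these are descriptions.

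At 5000 UMIs the median immature mTEC-like cell held 10 of the 34 members, the median tuft-like cell 5 and the median Aire-stage cell 4. Cells with at least 10 members made up 54.4% of immature cells (93 of 171, 95% Wilson interval 46.9 to 61.7%), 52% of myeloid-like cells (26 of 50), 15.2% of tuft-like cells (136 of 896), 8.24% of Aire-stage cells (91 of 1104, 6.76 to 10%) and 2.4% of transit-amplifying-like cells (6 of 250). Such intervals cover counting error only. Between the myeloid-like and tuft-like shares lay the ciliated-like (33.3%), keratinocyte-like (22.3%), goblet- or secretory-like (19.5%), enterocyte- or hepatocyte-like (19.2%) and thymocyte-like (15.8%) classes. Muscle-like (11.4%), neuroendocrine-like (5%) and microfold-like (3.55%) cells lay below the tuft-like share. The highest count, 26 members, was in an Aire-stage cell of spermidine 1. Free RNA in droplets can add UMIs to every class, and the transit-amplifying-like share was the lowest of the classes at this depth.

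**Figure D2:**
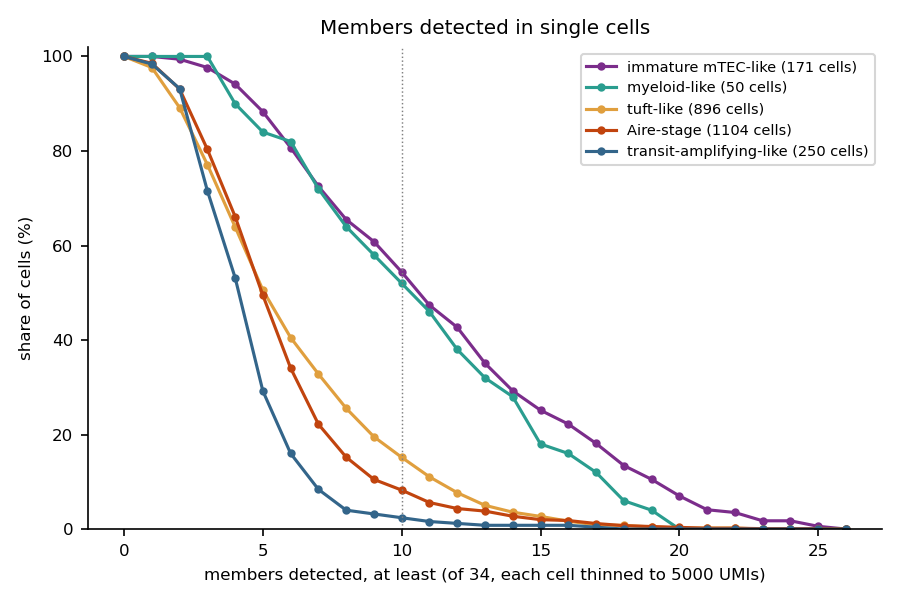
Share of cells (y axis, %) with at least the number of members on the x axis detected, each cell thinned to 5000 UMIs, for 5 classes, with a dotted line at 10 members. At that line the immature mTEC-like curve is at 54.4% and the myeloid-like at 52%, well above the tuft-like at 15.2%, the Aire-stage at 8.24% and the transit-amplifying-like at 2.4%.

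Members varied together between cells of 1 class. The measure was Pearson's r of log(1 + UMIs) at 5000 UMIs, over members with a UMI in at least 5% of the class's cells. In 171 immature cells, 32 members gave 496 pairs with a median r of 0.16, and 37.3% of pairs exceeded 0.2, against 1.97% of pairs of a member with another gene. In 896 tuft-like cells, 25 members gave 300 pairs with a median of 0.11 and 15.3% of pairs over 0.2, against 0.135%. In 1104 Aire-stage cells, 25 members gave 300 pairs with a median of 0.079 and 7.67% of pairs over 0.2, against 0.0192%. The cells of a class share 1 run and the 4 samples, and sparse counts pull r towards 0. The tuft-like and Aire-stage classes each pool clusters of unlike summed member level. Tuft-like clusters 4 and 7 held 1102 and 2608 CPM, and Aire-stage clusters 6 and 1 held 1382 and 2336 CPM. The part of such differences between clusters in r was not tested. Without thinning the median r was 0.195 in Aire-stage and 0.25 in tuft-like cells.

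The closest pairs differed between classes. In Aire-stage cells they were Isg15 with Irf7 (r = 0.349), Isg15 with Bst2 (0.317), Isg15 with Xaf1 (0.313), Irf7 with Bst2 (0.297) and Isg15 with Trim30a (0.28). In tuft-like cells they were Irf7 with Ifi27l2a (0.435), Isg15 with Ifi27l2a (0.408), Ifi27l2a with Bst2 (0.402), Oasl2 with Ifi27l2a (0.385) and Isg15 with Irf7 (0.381). In immature cells they were Ifi27l2a with Bst2 (0.568), Isg15 with Ifi27l2a (0.534), Isg15 with Bst2 (0.523), Isg15 with Ifi44 (0.467) and Isg15 with Ifit3 (0.448). Isg15, a ubiquitin-like protein that is joined to other proteins, stood in most of these pairs. A member's median r with the other members ran from 0.01 for Ifi205 to 0.171 for Isg15 in Aire-stage cells, from 0.058 for Ifih1 to 0.2 for Irf7 in tuft-like cells and from -0.056 for Ifi27 to 0.299 for Ifit3 in immature cells. In immature cells Isg15 was detected in 43 of 54 cells with Ifit3 (79.6%), against 45 of 117 without it (38.5%). In Aire-stage cells it was detected in 11 of 27 cells with Ifit3 (40.7%), against 150 of 1077 without it (13.9%).

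**Figure D3:**
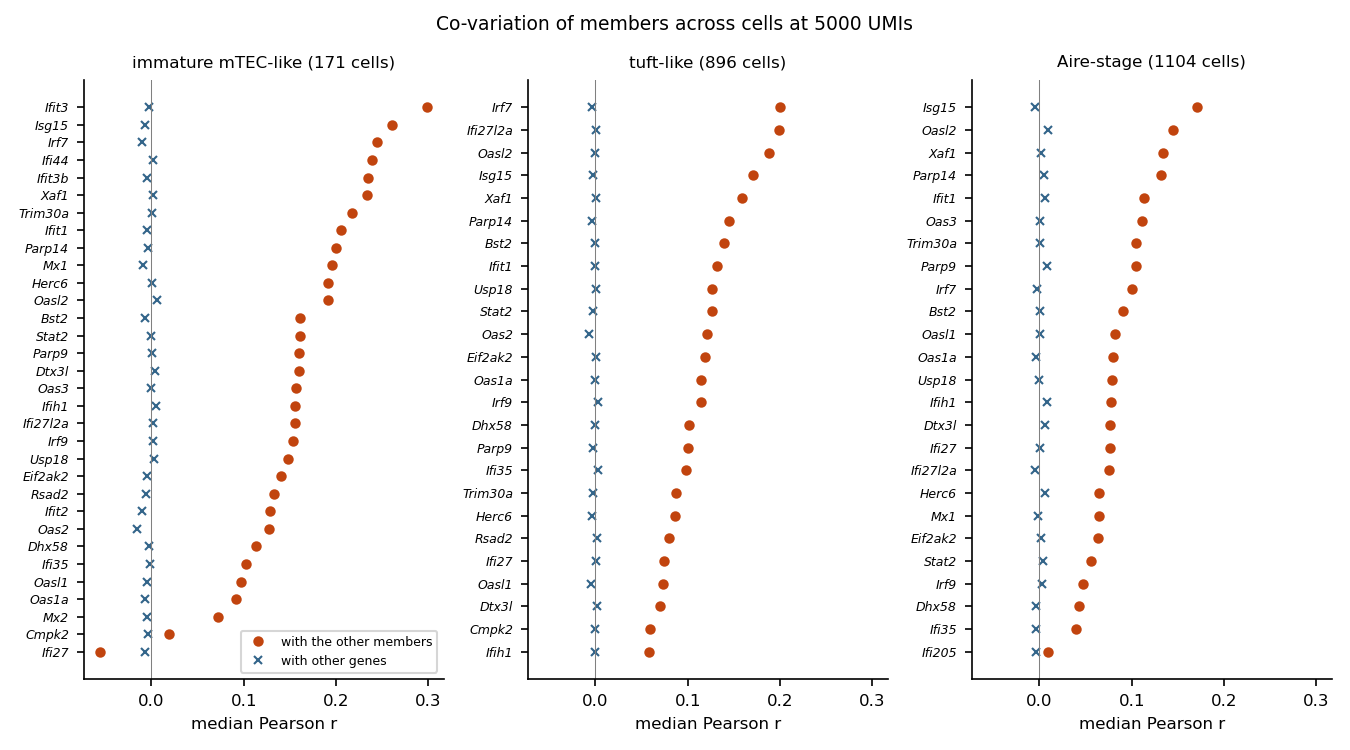
Median Pearson r of each member with the other members (circles) and with genes outside the list (crosses) across single cells at 5000 UMIs, for members with a UMI in at least 5% of the cells of the class. The crosses lie close to 0 in every panel, and the circles reach 0.299 for Ifit3 in immature mTEC-like cells, 0.2 for Irf7 in tuft-like cells and 0.171 for Isg15 in Aire-stage cells, with Ifi27 in immature cells alone below 0.

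The genes outside the list whose level was most like the summed members over the 1104 Aire-stage cells, among 15955 genes compared, were Zbp1 (r = 0.361), Iigp1 (0.306), Ifitm3 (0.301), Rnf213 (0.268), AW112010 (0.255), Psmb8 (0.253), B2m (0.251), Irgm1 (0.249), Rtp4 (0.24), Psmb9 (0.234), Gm12250 (0.231), Plaat3 (0.229), Igtp (0.229), H2-K1 (0.229) and Lgals3bp (0.221). Zbp1 encodes a sensor of Z-form nucleic acid, Psmb8 and Psmb9 are subunits of the immunoproteasome, and B2m is the light chain of MHC class I.

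The treatment question was whether spermidine moved the members within each class. The UMIs of each class were added up within each hashed sample, fitted with edgeR and scaled by the trimmed mean of M-values (TMM). None of the 34 members passed in any of the 5 fits. In Aire-stage cells 0% of the 18080 genes tested passed, with 7.84% of genes and 6 of the 33 members tested under an unadjusted p of 0.05. In transit-amplifying-like cells 0.00915% of 10928 genes passed, with 7.9% of genes and 4 of 23 members under that p. In tuft-like cells 0.134% of 12728 genes passed, with 11% of genes and 13 of 28 members under it. In immature mTEC-like cells 0% of 8552 genes passed, with 6.38% of genes and 4 of 31 members under it, and in all epithelial cells summed 0% of 21462 passed, with 15.1% of genes and 11 of 34 members. DESeq2 called 2 members in Aire-stage cells (81 of 35166 genes, 0.23%) and 2 in all epithelial cells (474 of 37562 genes, 1.26%), and none in the other 3. Members missing from a fit had too few counts for its filter.

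**Figure D4:**
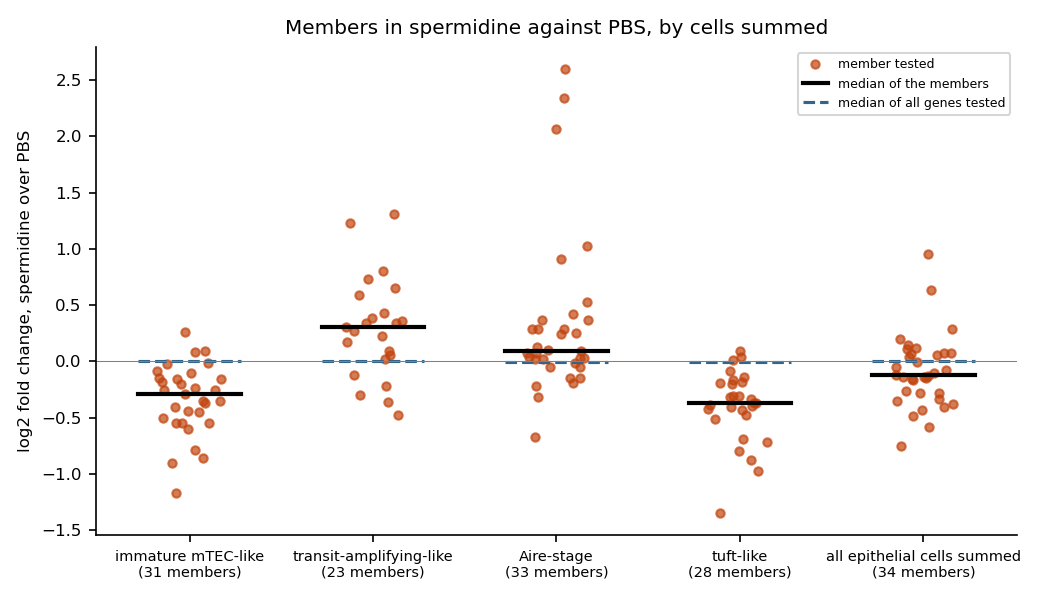
Log2 fold change, spermidine over PBS, of each member tested (points, edgeR), with the median of the members (black line) and of all genes tested (dashed line), by the cells summed. The members' median is -0.37 in tuft-like and -0.29 in immature mTEC-like cells, 0.31 in transit-amplifying-like and 0.09 in Aire-stage cells, and no point passed the adjusted threshold.

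In tuft-like cells both spermidine samples lay below both PBS samples for 20 of the 28 members tested, where 21.9% of all genes did so, and above them for 0, where 21% of all genes did. The median fold change was -0.37, and without a sample it was between -0.53 and -0.27. Members vary together across cells, so these counts are not of independent genes. Each sample's median log2 CPM over the members had an SD within treatments of 0.27 in tuft-like cells. That SD was 0.28 in transit-amplifying-like, 0.21 in immature, 0.078 in Aire-stage and 0.025 in all epithelial cells. Isg15 had 37.8 and 21.6 TMM-scaled CPM in spermidine cells and 63 and 55.9 in PBS cells (log2 fold change -0.98, SE 0.20, edgeR adjusted p = 0.126). Xaf1 had 38.1 and 24.4 CPM in spermidine cells and 56.2 and 54.5 CPM in PBS cells (-0.80, SE 0.17, edgeR adjusted p = 0.153). Rsad2 (viperin), which makes a chain-terminating nucleotide, had 25.4 and 22.6 CPM in spermidine cells and 40.9 and 38 CPM in PBS cells (-0.72, SE 0.15, edgeR adjusted p = 0.128). In each of these the second spermidine sample was the lowest of the 4, and the groups did not overlap. Ifi27l2a had 531 and 258 CPM in spermidine cells and 643 and 820 CPM in PBS cells (-0.87, SE 0.24, edgeR adjusted p = 0.26). Irf7 had 187 and 146 CPM in spermidine cells and 206 and 209 CPM in PBS cells (-0.31, SE 0.11, edgeR adjusted p = 0.332). Ifi27 had 170 and 165 CPM in spermidine cells and 224 and 197 CPM in PBS cells (-0.34, SE 0.09, edgeR adjusted p = 0.24), and Oasl2 had 130 and 102 CPM in spermidine cells and 154 and 147 CPM in PBS cells (-0.37, SE 0.11, edgeR adjusted p = 0.298). All 4 of these also had both spermidine values below both PBS values.

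Of the members tested in tuft-like cells, 3 had fold changes above 0. Ifih1 (MDA5), a sensor of long double-stranded RNA, had 75.5 and 63.5 CPM in spermidine cells and 68.2 and 62.5 CPM in PBS cells (0.09, SE 0.13, edgeR adjusted p = 0.849). Stat2 had 61 and 55.7 CPM in spermidine cells and 64.1 and 49.9 CPM in PBS cells (0.02, SE 0.14, edgeR adjusted p = 0.983), and Ifi27l2b had 0.363 and 5.99 CPM in spermidine cells and 0.566 and 6.33 CPM in PBS cells (0.04, SE 1.05, edgeR adjusted p = 0.996), all with overlap. Without spermidine 1, edgeR called 8 members lower (1.38% of all genes called in either direction), and it called 2 lower without spermidine 2 (2.13% of all genes) and 2 without PBS 2 (0.416% of all genes), each as 1 sample against 2 that is assumed to vary like them.

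The tuft-like class is made of clusters 3, 4 and 7, whose summed member levels differ. Cluster 7 held 2836 and 2071 CPM in the spermidine samples and 2795 and 2732 CPM in the PBS samples, and cluster 4 held 869 and 841 CPM in the spermidine samples and 1323 and 1375 CPM in the PBS samples. Cluster 3 held 1867 and 1107 CPM in the spermidine samples and 2618 and 3403 CPM in the PBS samples. It had 13 and 17 spermidine cells and 47 and 24 PBS cells and was not fitted alone. Cluster 4 made up 36.5 and 40.1% of spermidine tuft-like cells and 32.9 and 32.3% of PBS ones. Within cluster 4 alone no member passed, with 22 of 23 values below 0 and a median of -0.46, and within cluster 7 none passed, with 19 of 27 below 0 and a median of -0.14. Isg15 was at -2.51 in cluster 4 and -0.22 in cluster 7, Ifi27l2a at -1.92 and -0.23, and Xaf1 at -1.55 and -0.19. Rsad2 was further below 0 in cluster 7, at -0.66, than in cluster 4, at -0.42. These fits within clusters were chosen after the data had been seen. Summed myeloid and dendritic markers (18 genes) stood at 485 and 603 CPM in spermidine tuft-like cells and 509 and 476 CPM in PBS ones, with Clec9a at 0 in all 4, and 11 to 13 of the 18 had a UMI. Their part in the result was not tested.

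The genes around the members gave no call in tuft-like cells either. Of 16 gamma-led genes tested, 13 had fold changes below 0, with a median of -0.29. Zbp1 had 27.6 and 18.4 CPM in spermidine cells and 42.2 and 32 CPM in PBS cells (-0.70, edgeR adjusted p = 0.287).

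In Aire-stage cells the values went the other way for some members. Both spermidine samples lay above both PBS samples for 11 of the 33 members tested (19.5% of all genes) and below them for 5 (19.6% of all genes), with a median of 0.09, which was 0.05 without PBS 2. Ifit3 had 26.7 and 17.4 CPM in spermidine cells and 4.43 and 2.9 CPM in PBS cells (2.60, SE 0.36, edgeR adjusted p = 0.555), and Rsad2 had 23.9 and 36.6 CPM in spermidine cells and 9.09 and 5.38 CPM in PBS cells (2.06, SE 0.36, edgeR adjusted p = 0.555). DESeq2 called both, at adjusted p = 0.00125 for Ifit3 and 0.00529 for Rsad2.

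The Rsad2 and Ifit3 sums of the spermidine samples rested on few cells. In spermidine 1, 1 Aire-stage cell with 47617 UMIs and 33 of the 34 members detected held 140 of 227 Rsad2 UMIs (61.7%) and 141 of 254 Ifit3 UMIs (55.5%). In spermidine 2, 1 cell with 30964 UMIs and 30 members at full depth held 154 of 229 Rsad2 UMIs (67.2%) and 43 of 109 Ifit3 UMIs (39.4%), and 402 UMIs of Cxcl10. In PBS 1 and PBS 2 the leading cells held 5 of 39 (12.8%) and 4 of 26 (15.4%) Rsad2 UMIs, and 9 of 19 (47.4%) and 3 of 14 (21.4%) Ifit3 UMIs. The share of the leading cell was higher in both spermidine samples for Rsad2 and overlapped between treatments for Ifit3. With each gene's top cell left out of every sample, Rsad2 was at 0.73 (edgeR adjusted p = 0.627) and Ifit3 at 2.24 (edgeR adjusted p = 0.28). The share of Aire-stage cells with a Rsad2 UMI was 7.13 and 9.09% in the spermidine samples and 8.7 and 5.39% in the PBS samples. Neither leading spermidine cell had an Ifnb1 UMI.

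Ifit3b, with the fifth smallest p of those above 0, had 14.7 and 9.27 CPM in spermidine cells and 4.19 and 0.621 CPM in PBS cells (2.34, SE 0.80, edgeR adjusted p = 0.612), on 18 and 3 UMIs in PBS. Ifit2 had 26.4 and 18.5 CPM in spermidine cells and 6.76 and 15.3 CPM in PBS cells (1.02, SE 0.43, edgeR adjusted p = 0.663), and in PBS 2 1 cell held 61 of its 74 UMIs. Both are close in position to Ifit3 and were added for their size after their values had been seen. Oasl1 had 63.9 and 65.7 CPM in spermidine cells and 82.7 and 79.3 CPM in PBS cells (-0.32, SE 0.09, edgeR adjusted p = 0.595). Ifi27l2b had 26.2 and 19.7 CPM in spermidine cells and 11.2 and 13.2 CPM in PBS cells (0.91, SE 0.23, edgeR adjusted p = 0.583), without overlap. Trim30a had 31.3 and 34.4 CPM in spermidine cells and 25.4 and 20.3 CPM in PBS cells (0.52, SE 0.17, edgeR adjusted p = 0.605). Ifi205 had 27.5 and 20.6 CPM in spermidine cells and 29.4 and 47.6 CPM in PBS cells (-0.67, SE 0.29, edgeR adjusted p = 0.666), and Herc6, a ligase that joins Isg15 to proteins in the mouse, had 18.2 and 18.4 CPM in spermidine cells and 21 and 21.7 CPM in PBS cells (-0.22, SE 0.15, edgeR adjusted p = 0.774). Of the 4 members with the highest levels, Usp18 did not overlap between treatments and the others did. Ifi27l2a had 285 and 427 CPM in spermidine cells and 210 and 322 CPM in PBS cells (0.42, SE 0.28, edgeR adjusted p = 0.772), and Ifi27 had 165 and 158 CPM in spermidine cells and 161 and 209 CPM in PBS cells (-0.19, SE 0.14, edgeR adjusted p = 0.788). Oasl2 had 148 and 148 CPM in spermidine cells and 168 and 138 CPM in PBS cells (-0.05, edgeR adjusted p = 0.952), and Usp18 had 154 and 168 CPM in spermidine cells and 188 and 170 CPM in PBS cells (-0.15, edgeR adjusted p = 0.758). Cluster 6, one of the 3 that make up the class, held 26 and 22.7% of spermidine Aire-stage cells and 17.8 and 13.7% of PBS ones. Summed myeloid and dendritic markers stood at 1728 and 1580 CPM in spermidine Aire-stage cells and 1990 and 1914 CPM in PBS ones, and their part in these values was not tested.

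**Figure D5:**
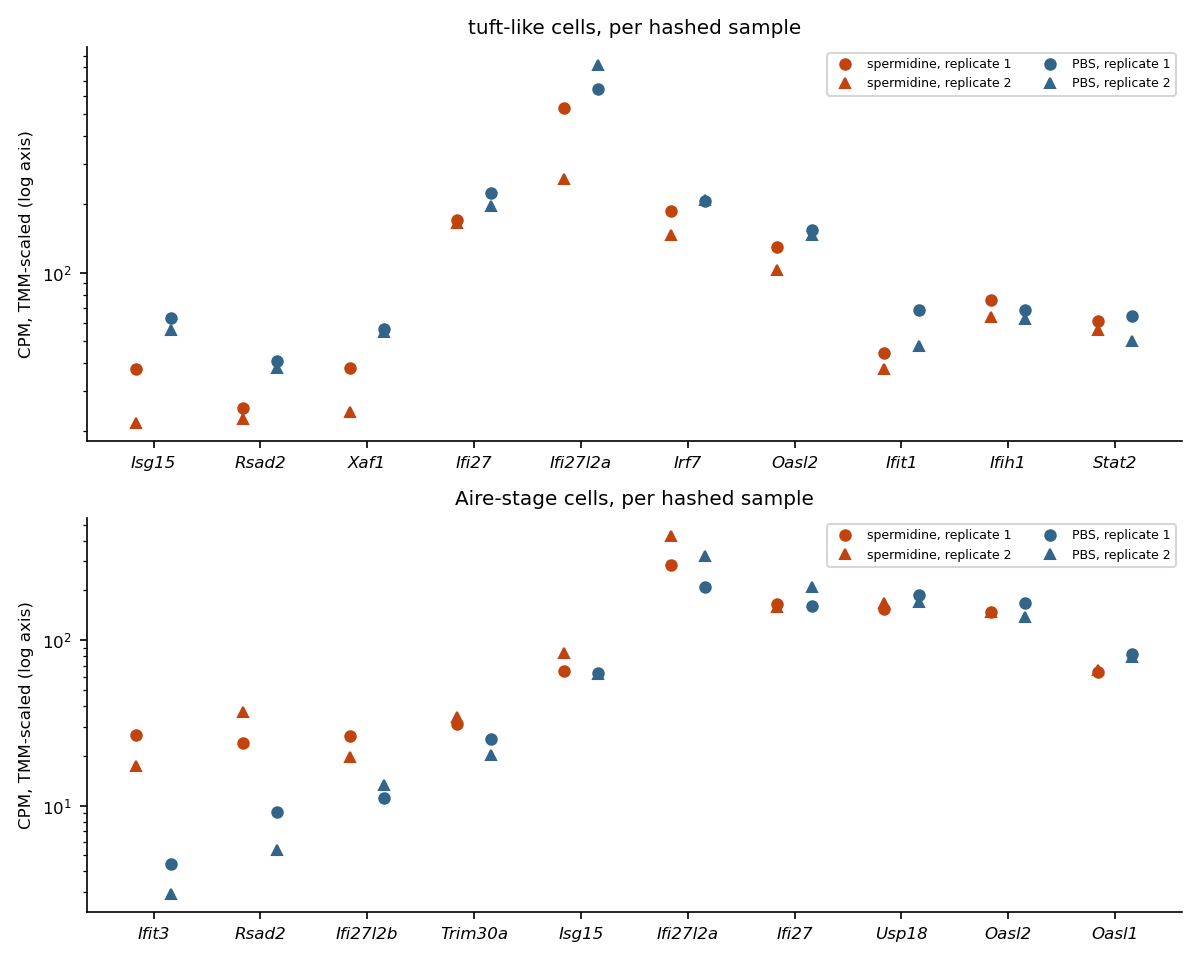
TMM-scaled CPM (log axis) of 10 members in tuft-like cells (top) and 10 in Aire-stage cells (bottom), 1 symbol per hashed sample, spermidine left of PBS. In tuft-like cells the spermidine points of Isg15, Rsad2 and Xaf1 lie below both PBS points, while in Aire-stage cells those of Ifit3 and Rsad2 lie above both.

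In transit-amplifying-like cells, the proliferating precursors, 8 of the 23 members tested lay above in both spermidine samples (19.1% of all genes) and 2 below (18.5% of all genes). The median of 0.31 was 0.16 without spermidine 1 and 0.18 without PBS 1. Isg15 had 27.5 and 21 CPM in spermidine cells and 11.4 and 8.36 CPM in PBS cells (1.31, SE 0.30, edgeR adjusted p = 0.277), on 82 and 38 UMIs in spermidine and 17 and 13 UMIs in PBS. Ifi27l2a had 521 and 492 CPM in spermidine cells and 696 and 607 CPM in PBS cells (-0.36, SE 0.11, edgeR adjusted p = 0.43). Neither overlapped between treatments. Ifih1 had 31.2 and 24.8 CPM in spermidine cells and 18.1 and 18 CPM in PBS cells (0.65, SE 0.24, edgeR adjusted p = 0.537), and Trim30a had 20.5 and 16 CPM in spermidine cells and 3.35 and 12.2 CPM in PBS cells (1.23, SE 0.47, edgeR adjusted p = 0.559). Bst2 had 133 and 110 CPM in spermidine cells and 89.7 and 107 CPM in PBS cells (0.31, SE 0.15, edgeR adjusted p = 0.672). Usp18 had 167 and 176 CPM in spermidine cells and 200 and 199 CPM in PBS cells (-0.22, SE 0.11, edgeR adjusted p = 0.663). Oasl1 (-0.48, edgeR adjusted p = 0.897) and Ifi35 (-0.12, edgeR adjusted p = 0.917) overlapped, with Oasl1 at 5.7 and 3.31 CPM in spermidine cells and 4.02 and 9.01 CPM in PBS cells and Ifi35 at 99.3 and 85.5 CPM in spermidine cells and 114 and 88.1 CPM in PBS cells.

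The treatment effect on Isg15 in tuft-like cells minus that in transit-amplifying-like cells was -2.32 (SE 0.32, edgeR adjusted p = 0.0336), the only member of 29 tested to pass that comparison, which 0.0937% of all genes did. For tuft-like minus Aire-stage cells 0 of 34 members passed in edgeR, where 0% of all genes did, with 15 members and 7.02% of all genes under an unadjusted p of 0.05 and a median of -0.55 over the members and -0.05 over all genes. Both comparisons of effects were added after the data had been seen and were not recomputed under other settings.

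In immature mTEC-like cells, of which a sample held 34 to 79, 1 of the 31 members tested lay above in both spermidine samples (18% of all genes) and 10 below (17.8% of all genes). Ifit3 had 56.4 and 89.1 CPM in spermidine cells and 141 and 114 CPM in PBS cells (-0.79, SE 0.25, edgeR adjusted p = 0.719). Ifih1 had 69.2 and 83.1 CPM in spermidine cells and 109 and 116 CPM in PBS cells (-0.55, SE 0.22, edgeR adjusted p = 0.78), Mx1 had 20.5 and 22.3 CPM in spermidine cells and 43.1 and 34.7 CPM in PBS cells (-0.86, SE 0.38, edgeR adjusted p = 0.782), and Mx2 had 12.8 and 8.1 CPM in spermidine cells and 27.2 and 18.8 CPM in PBS cells (-1.17, SE 0.53, edgeR adjusted p = 0.782). These 4 did not overlap between treatments. The members with the most UMIs did overlap. Ifi27l2a had 2602 and 3554 CPM in spermidine cells and 3464 and 2793 CPM in PBS cells (-0.02), Oasl2 had 244 and 401 CPM in spermidine cells and 420 and 301 CPM in PBS cells (-0.16), Bst2 had 228 and 365 CPM in spermidine cells and 315 and 363 CPM in PBS cells (-0.18), and Isg15 had 131 and 219 CPM in spermidine cells and 280 and 203 CPM in PBS cells (-0.45). Of the 3 members above 0, Ifit2 had 20.5 and 28.4 CPM in spermidine cells and 28.3 and 11.6 CPM in PBS cells (0.26), Ifi35 had 105 and 134 CPM in spermidine cells and 120 and 106 CPM in PBS cells (0.09), and Dtx3l had 76.9 and 79 CPM in spermidine cells and 72.5 and 75.3 CPM in PBS cells (0.08). The first spermidine sample was the lowest of the 4 in Isg15, Oasl2 and Ifi27l2a, and the median over members, -0.29, was -0.65 without spermidine 2 and -0.03 without PBS 1.

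Over all epithelial cells summed, which also moves with the mix of classes, 16 of 34 members lay below in both spermidine samples (24.7% of all genes) and 3 above (24.4% of all genes). Immature cells numbered 34 and 40 in the spermidine samples and 79 and 55 in the PBS samples, and tuft-like cells 233 and 162 in the spermidine samples and 377 and 220 in the PBS samples. Irf7 had 72.6 and 66.1 CPM in spermidine cells and 108 and 100 CPM in PBS cells (-0.58, SE 0.09, edgeR adjusted p = 0.207). Within classes its fold change was -0.31 in tuft-like, -0.35 in immature, 0.37 in Aire-stage and 0.80 in transit-amplifying-like cells. Xaf1 had 26.8 and 28 CPM in spermidine cells and 40.1 and 36.7 CPM in PBS cells (-0.49, SE 0.09, edgeR adjusted p = 0.207), and Ifi27l2a had 490 and 544 CPM in spermidine cells and 711 and 657 CPM in PBS cells (-0.40, SE 0.10, edgeR adjusted p = 0.231). Ifi27 had 161 and 153 CPM in spermidine cells and 188 and 209 CPM in PBS cells (-0.34, SE 0.09, edgeR adjusted p = 0.241). These 4 lay below in both spermidine samples. Ifit2 had 15.1 and 11.2 CPM in spermidine cells and 5.63 and 8.04 CPM in PBS cells (0.95, SE 0.26, edgeR adjusted p = 0.249), and Ifit3b had 8.92 and 6.66 CPM in spermidine cells and 6.09 and 3.94 CPM in PBS cells (0.63, SE 0.30, edgeR adjusted p = 0.398). Trim30a had 32 and 31.3 CPM in spermidine cells and 29.1 and 26.1 CPM in PBS cells (0.19). Rsad2 had 19.1 and 23.3 CPM in spermidine cells and 19.9 and 14.7 CPM in PBS cells (0.28), with overlap, and was at -0.48 without its top cells. Oasl2 had 141 and 143 CPM in spermidine cells and 160 and 144 CPM in PBS cells (-0.10), and Usp18 had 142 and 138 CPM in spermidine cells and 134 and 139 CPM in PBS cells (0.04).

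The share of epithelial cells with at least 10 members at 5000 UMIs was 11.7% (111 of 948) and 11.8% (78 of 662) in the spermidine samples and 15.4% (143 of 926) and 15.4% (102 of 662) in the PBS samples. The difference of -3.68 percentage points had a two-sided exact permutation p of 0.333, the smallest that 2 against 2 samples can give. It was -7.01 points for at least 8 members, -1.34 points for at least 12 and -9.35 points with cells thinned to 10000 UMIs. Within tuft-like cells the share was 13.2 and 10.9% in the spermidine samples and 16.7 and 17.8% in the PBS samples. Within Aire-stage cells it was 9.47 and 7.47% in the spermidine samples and 7.07 and 7.98% in the PBS samples, and within immature cells 42.3 and 61.1% in the spermidine samples and 60.9 and 46.7% in the PBS samples, so both overlapped. Before thinning the epithelial share was 53.6 and 52.7% in the spermidine samples and 55.6 and 60% in the PBS samples, and 95 and 75 spermidine cells and 113 and 97 PBS cells were too shallow to thin.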

How the data were processed

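Gene and hashtag UMIs were measured in 1 droplet run that held the 4 labelled hashed samples and cells of other hashtags, and the labels' protocols name 10x 3' chemistry. The authors deposited a raw count (UMIs, not normalized) per gene, hashtag and cell, and per the file headers Cell Ranger 7.1.0 made it, on mm10 per the submitters' processing notes. The labels give a sample to hashtags HT2 to HT5. Hashtags HT6 and HT7 were also positive in many cells, were used to remove doublets and are otherwise not analysed here. HTODemux (Seurat 5.3.0, positive quantile 0.99) found 1831 doublets and 532 negative cells among 8534, and left 3739 cells in the 4 samples. Of the cells that HT2 to HT5 alone would keep, 880 were doublets with HT6 or HT7.

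Cells were clustered with scanpy 1.11.5 (2000 variable genes, 30 components, 15 neighbours, resolution 1) into 18 clusters, named from marker lists into 13 classes, of which 3578 cells were epithelial. Counts summed per sample and class were tested with edgeR 4.0.16 (quasi-likelihood, TMM, filterByExpr with a minimum count of 10, Benjamini-Hochberg adjusted p under 0.05 over all genes), and DESeq2 1.42.0 was an alternative. A class entered a treatment fit with at least 20 cells in each sample. Counts of members per cell and r used cells thinned to 5000 UMIs unless stated otherwise. Interferon UMIs, the values of leading cells and the share of cells with a Rsad2 UMI used all UMIs of a cell. The scripts were tested on simulated data. The members and all lists were chosen with earlier results of these data known. Members named with values were, in each treatment comparison, the 4 with the smallest p in each direction and the 4 with the highest level, and in each class comparison the 5 largest and the 5 smallest fold changes. Co-variation names the 5 closest pairs and the 15 non-members most like the sum, found in at least 1% of cells. Other members are given without values in every sample.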

Additional observations from a re-analysis of the deposited data

Results flagged for a closer look

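The treatment effect on Isg15 was estimated to differ between tuft-like and transit-amplifying-like cells. Its log2 fold change in tuft-like cells minus that in transit-amplifying-like cells was -2.32 (SE 0.32, edgeR adjusted p = 0.0336 over 13874 genes, of which 13 passed). In tuft-like cells both spermidine samples lay below both PBS samples, and in transit-amplifying-like cells both lay above. Within single tuft-like clusters the Isg15 fold change was uneven, at -2.51 in cluster 4 alone and -0.22 in cluster 7 alone. The comparison of effects between classes was added after the data had been seen and was not recomputed under the alternatives given below. The transit-amplifying-like samples held 104 and 65 spermidine cells and 50 and 58 PBS cells. Their Isg15 UMIs numbered 82 and 38 in the spermidine samples and 17 and 13 in the PBS samples.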

How the results depend on the processing

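Of the results that answer a comparison, 146 recomputed values were counted as the same as the value given, and 31 moved. A count was the same within 1.5 times, and most other values within their spread. For the share of epithelial cells with at least 10 members only the direction was compared. Its differences of -9.35 to -1.34 points, against -3.68, were therefore all counted as the same. No member passed without a filter on low counts in immature mTEC-like cells either, but without it edgeR called 6 members in Aire-stage (2.18% of all genes), 2 in transit-amplifying-like (1.81%), 9 in tuft-like (1.36%) and 5 in all epithelial cells (6.41%); DESeq2 called 2 in Aire-stage and 2 in all epithelial cells. With each gene's top cell left out, 1 member was called in tuft-like cells (0.295% of all genes). Leaving out 1 sample at a time gave 0 to 1 called members in transit-amplifying-like, 0 to 8 in tuft-like and 0 to 1 in all epithelial cells, and a median of 0.05 to 0.13 in Aire-stage, 0.16 to 0.44 in transit-amplifying-like, -0.65 to -0.030 in immature and -0.16 to -0.10 in all epithelial cells. Each fit without a sample sets 1 sample against 2 and assumes that it varies like them. Wherever such a fit called a member, more of all genes were called too than with no sample left out. These counts of called members are therefore not specific to the members. With the replicate number as a block, edgeR called 5 members in tuft-like cells, all lower (1.06% of all genes). With only 2 pairs the samples share a number and pairing was not established.

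The Aire-stage median was 0.19 in clusters made with the members and 0.25 in cluster 1 alone, against 0.06 in cluster 0 and 0.09 in cluster 6 alone, and the epithelial median was -0.17 on library totals and -0.17 without top cells. Unthinned median r was 0.195 in Aire-stage and 0.25 in tuft-like cells. Without Ifi27l2a the summed level was 2920 CPM in immature, 1400 in tuft-like, 1553 in Aire-stage, 812 in transit-amplifying-like and 3853 in myeloid-like cells. Clusters made with the members gave 2015 CPM in Aire-stage and 1237 CPM in transit-amplifying-like cells, and hashtags HT2 to HT5 alone gave 1271 CPM in transit-amplifying-like cells.

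Among single members, 474 recomputed values kept direction and side, 39 passed only under the alternative and 33 reversed. Leaving out 1 sample gave, in Aire-stage cells, -0.37 to 0.0082 for Ifi27 and -0.19 to 0.10 for Oasl2; in transit-amplifying-like cells, -0.97 to 0.19 for Oasl1 and -0.30 to 0.068 for Ifi35; in tuft-like cells, -0.053 to 0.19 for Ifih1, -0.14 to 0.22 for Stat2 and -2.91 to 2.33 for Ifi27l2b; in immature cells, -0.21 to 1.07 for Ifit2, -0.11 to 0.24 for Ifi35, -0.27 to 0.19 for Ifi27l2a, -0.58 to 0.15 for Oasl2 and -0.57 to 0.11 for Bst2. With clusters made with the members, Oasl2 was at 0.034 in Aire-stage, Ifi35 at 0.0030 in transit-amplifying-like and Ifit2 at -0.11 in immature cells. In tuft-like cells Stat2 was at -0.013 on library totals, -0.018 without a filter and -0.032 with HT2 to HT5 alone, and Ifi27l2b at -0.10 in DESeq2, -0.031 without a filter and -0.15 with the replicate block. With HT2 to HT5 alone, Ifit2 was at -0.25 and Ifi35 at -0.0085 in immature cells. Without top cells, Ifi27l2a was at 0.036 in immature cells, and Ifit3b at -0.18 and Rsad2 at -0.48 in all epithelial cells; Usp18 was at -0.0012 on library totals. The cause was not tested. With 2 samples a group and 34 to 79 immature cells a sample, small differences may not be detectable.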
